A study of Mus musculus with 6 samples.

Results

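Interferon-stimulated genes were followed in cells isolated as peritoneal ECs from mice given PD fluid or saline. They form a list of 39 gene symbols covering transcription factors, nucleic acid sensors and antiviral effectors. Members were the rows of the deposited count table whose symbol equalled a listed one. Rows were found for 37 of the 39 symbols, among 22183 genes in the table, and each had a single row. The dynamins Mx1 and Mx2 were not analysed here. All 37 genes passed edgeR's filter on low counts, together with 14005 genes in total.

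RNA was sequenced from 3 PD mice and 3 saline mice, with 1 library for each mouse, to compare the transcriptome of cells isolated as peritoneal ECs under the 2 treatments. All mice were wild type and received PD fluid or saline by intraperitoneal injection for 6 weeks. The study's methods describe them as young adult C57BL/6J males injected daily, with PD fluid of high glucose content. The labels name peritoneal tissue as the source and magnetic sorting of CD31+ cells, while the study's supplementary methods describe the mesentery and fluorescence sorting of CD31+ CD45- cells with both antibodies on the same dye. Values per mouse are CPM, which are read counts divided by the TMM-scaled library size, and positive log2 fold changes mean a higher level in PD mice.

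Interferons are secreted signalling proteins, and those of type I are released by cells on sensing viral or displaced nucleic acid. Type I interferon acts through the receptor chains IFNAR1 and IFNAR2 and the kinases JAK1 and TYK2, which activate a complex that contains STAT2 and IRF9. That complex binds a DNA element, the ISRE, in the promoters of interferon-stimulated genes, whereas the response to interferon gamma acts through a different element, the GAS. ECs respond to both kinds of interferon, and so do macrophages, lymphocytes and most other cells.

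Promoters of 6 of these genes are printed, because they show the elements that the response is named for in genes that rose (Ifitm3, Ifitm2, Oas1a and Irf1), in a gene that fell (Ddx58) and in a gene whose change did not pass the test (Isg15). Each runs 5′ to 3′ over 300 bases, from 250 bases before the start site to 50 after it, and comes from RefSeq on GRCm38.p6. Capitals mark the letters GAAANNGAAA of the ISRE on either strand, and in Irf1 the letters TTCNNNGAA of the GAS.
Ifitm3, chr7:141010695-141010994, minus strand: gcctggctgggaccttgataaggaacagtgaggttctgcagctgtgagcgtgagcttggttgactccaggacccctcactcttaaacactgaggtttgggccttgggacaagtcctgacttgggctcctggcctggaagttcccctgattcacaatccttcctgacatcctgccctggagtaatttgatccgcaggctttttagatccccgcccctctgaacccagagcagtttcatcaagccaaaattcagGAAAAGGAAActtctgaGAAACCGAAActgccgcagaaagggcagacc
Ifitm2, chr7:140955912-140956211, minus strand: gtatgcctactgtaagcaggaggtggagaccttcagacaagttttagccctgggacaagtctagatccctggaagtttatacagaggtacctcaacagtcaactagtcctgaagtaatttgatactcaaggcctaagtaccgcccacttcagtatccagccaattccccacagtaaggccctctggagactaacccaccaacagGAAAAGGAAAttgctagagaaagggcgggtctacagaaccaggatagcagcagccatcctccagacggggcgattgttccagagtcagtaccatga
Oas1a, chr5:120907476-120907775, minus strand: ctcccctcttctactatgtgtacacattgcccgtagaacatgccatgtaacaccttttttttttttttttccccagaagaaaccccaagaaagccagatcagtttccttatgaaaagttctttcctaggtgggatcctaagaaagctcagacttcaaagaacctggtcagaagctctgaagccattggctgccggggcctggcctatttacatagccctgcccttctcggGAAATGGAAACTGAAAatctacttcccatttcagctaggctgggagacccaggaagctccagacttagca
Isg15, chr4:156200769-156201068, minus strand: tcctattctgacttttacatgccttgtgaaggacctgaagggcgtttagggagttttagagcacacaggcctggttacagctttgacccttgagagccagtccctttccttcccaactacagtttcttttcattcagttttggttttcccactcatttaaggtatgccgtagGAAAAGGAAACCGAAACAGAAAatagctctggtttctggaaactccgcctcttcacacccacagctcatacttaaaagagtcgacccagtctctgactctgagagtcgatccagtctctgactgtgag
Ddx58, chr4:40239776-40240075, minus strand: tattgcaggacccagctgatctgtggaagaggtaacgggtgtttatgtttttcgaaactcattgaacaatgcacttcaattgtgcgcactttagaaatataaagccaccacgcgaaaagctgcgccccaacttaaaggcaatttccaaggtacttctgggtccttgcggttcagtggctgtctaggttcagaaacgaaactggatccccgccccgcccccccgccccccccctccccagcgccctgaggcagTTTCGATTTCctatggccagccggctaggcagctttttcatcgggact
Irf1, chr11:53769764-53770063, plus strand: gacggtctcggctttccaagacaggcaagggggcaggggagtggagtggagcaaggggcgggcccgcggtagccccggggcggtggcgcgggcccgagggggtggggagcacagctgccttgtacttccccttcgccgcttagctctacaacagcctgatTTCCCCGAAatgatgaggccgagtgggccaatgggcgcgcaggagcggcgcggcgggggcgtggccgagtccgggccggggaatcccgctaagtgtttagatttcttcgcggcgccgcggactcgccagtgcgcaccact

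Of the 31 genes with a promoter window, 19 (61.3%) held the ISRE letters on either strand, against 3.99% of 27025 genes with a window. The letters occurred in 11 of 18 genes that rose, in 1 of 4 that fell and in 7 of 9 that did not pass the test. In Isg15 the matches overlapped in 1 run, with first bases at positions -78, -72 and -66 from the start site. In Ifitm3 they lay just downstream of the start site, at positions 3 and 20. The GAS letters, which can overlap ISRE letters, occurred in 35.5% of the 31 genes and in 9.55% of all genes with a window. The largest riser, Ifitm1, held neither set of letters in its window, and neither did Irf7, Irf9, Oasl1, Oasl2, Ifi44, Cmpk2 or Xaf1. Windows of Zbp1, Oas2, Usp18, Iigp1, Rtp4 and Parp14 were not analysed here. A match is a string of letters and not a bound site.

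Cell type markers differed between the groups, and their values stand here because the member genes are expressed in many cell types. Markers are counted as higher or lower at an edgeR adjusted p under 0.05. Over all tested genes, 31.1% rose and 27.8% fell at that threshold. Summed over 12 endothelial markers, the level was 1226 to 1240 CPM in saline mice and 1993 to 2105 CPM in PD mice, and 11 of the 12 rose. Leukocyte markers were nevertheless abundant in libraries labelled endothelial: by the authors' FPKM, which is scaled by transcript length, the CD45 transcript Ptprc was at 624 ± 30.2 in saline mice and 392 ± 7.73 in PD mice (SD, n = 3), against 145 ± 4.44 and 158 ± 5.11 for the CD31 transcript Pecam1. By the same FPKM, the other 11 endothelial markers ran from Cdh5 to Egfl7. Cdh5 was at 4.72 ± 0.715 in saline mice and 8.37 ± 0.365 in PD mice, and Egfl7 at 115 ± 3.37 and 173 ± 4.87 (SD, n = 3). All 10 macrophage markers rose, from summed levels of 2665 to 2804 CPM to 11100 to 12000 CPM. All 8 B cell markers fell, from 6738 to 7038 CPM to 3158 to 3218 CPM. The leukocyte list fell in 6 of 8 genes, with sums of 10440 to 10590 CPM in saline mice and 8273 to 8366 CPM in PD mice. Summed levels of T and NK cell markers were 1655 to 1752 CPM and 1424 to 1597 CPM (2 of 9 higher and 3 lower), and those of conventional dendritic cells 617.2 to 658.9 CPM and 577.5 to 593.8 CPM (4 of 7 higher and 1 lower). Ccr7, the gene of that list that fell, made most of its sum, and the other 6 genes summed to 105 to 118 CPM in saline mice and 153 to 177 CPM in PD mice. Plasmacytoid dendritic cell markers, from a cell type known for type I interferon output, summed to 63.7 to 64.3 CPM and 108.6 to 111.3 CPM, with 5 of 7 higher and 1 lower. Klk1 alone went from 0.398 to 38.2 CPM in that list, and the other 6 genes summed to 63.2 to 64.0 CPM and 71.5 to 73.2 CPM, a ratio of 1.13 in place of 1.72. Sums without the most changed gene were added after seeing the data. Neutrophil (6.00 to 8.58 CPM and 230.0 to 238.6 CPM; 6 of 6 tested higher), mesothelial (14.1 to 17.9 CPM and 156.0 to 180.1 CPM; 7 of 7 higher), fibroblast (92.2 to 100.4 CPM and 832.0 to 862.1 CPM; 7 of 7 higher) and pancreatic acinar lists (2.27 to 5.81 CPM and 7089 to 8004 CPM; 9 of 9 higher) all rose. No marker of these lists was at 0 in all saline mice, but Camp (2 reads), Ly6g (3 reads) and Reg1 (3 reads) were close to it over the 3 saline mice together. In bulk RNA of this kind, fewer cells of a type and less RNA per cell cannot be told apart, and the part of these shifts in the results that follow was not tested.

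**Figure D1:**
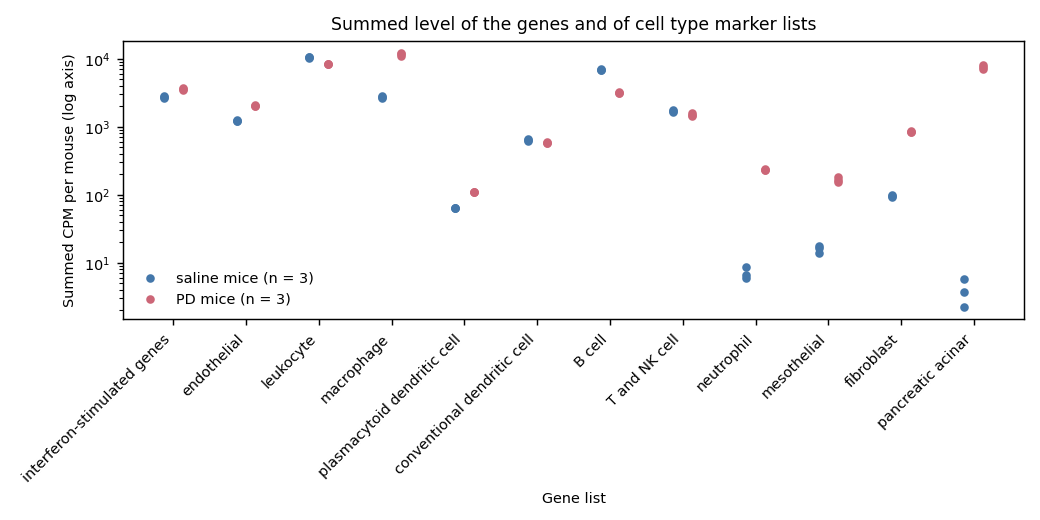
Summed CPM (log axis) of the 37 interferon-stimulated genes and of each cell type marker list, with 1 point per mouse (3 saline, 3 PD). The interferon-stimulated genes sum to 2668 to 2847 CPM in saline mice and 3530 to 3782 CPM in PD mice, while macrophage sums rise 4.22-fold and B cell sums fall 2.16-fold.

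Across the 37 genes, 20 rose and 5 fell in PD mice at an edgeR adjusted p under 0.05, and 12 did not pass. The share called was 67.6%, against 58.9% of all tested genes. It was 54.1% for higher genes, against 31.1% of all genes, and 13.5% for lower genes, against 27.8%. The PD mice did not overlap with the saline mice in 23 of the 37 genes (18 above and 5 below), where 65.6% of all genes showed no overlap (34.0% above and 31.6% below). The median log2 fold change was 0.28, against 0.02 over all genes, and the median absolute log2 fold change was 0.36, against 0.40 over all genes. A called rise of 2-fold or more was seen in 5 of the 37 genes (Ifitm1, Ifitm2, Ifitm3, Ifi44 and Oas2), or 13.5%, against 15.4% of all genes. None of the 37 fell by that much, against 1.80% of all genes. Log2 fold changes of the 12 genes not called ran from -0.12 to 0.20, and their 95% intervals from -0.29 to 0.48.

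The number of risers depended on what the libraries were scaled to. With scaling to the summed endothelial markers, the median log2 fold change of all genes moved from 0.02 to -0.71, and 5 of the 37 genes were higher and 23 lower, against 11.6% higher and 65.1% lower over all genes. The 5 were Ifitm1, Ifitm2, Ifitm3, Oas2 and Ifi44. The marker sum gives most weight to Pecam1, the most abundant of the 12 (mean CPM: saline 468.9, PD 513.5). Its log2 fold change with TMM scaling, 0.13, was the smallest of the 12 and was not called. The other markers rose by 0.53 (Tek) to 1.65 (Tie1). Scaling without Pecam1 was not tested, so how far these 5 calls depend on that gene is not known. Measured from the median of all genes under this scaling, the log2 changes ran from -0.70 for Isg20 to 1.70 for Ifitm1. The scaling shifts all genes by nearly the same amount, so by construction these values nearly repeat those with TMM scaling (-0.68 and 1.72).

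**Figure D2:**
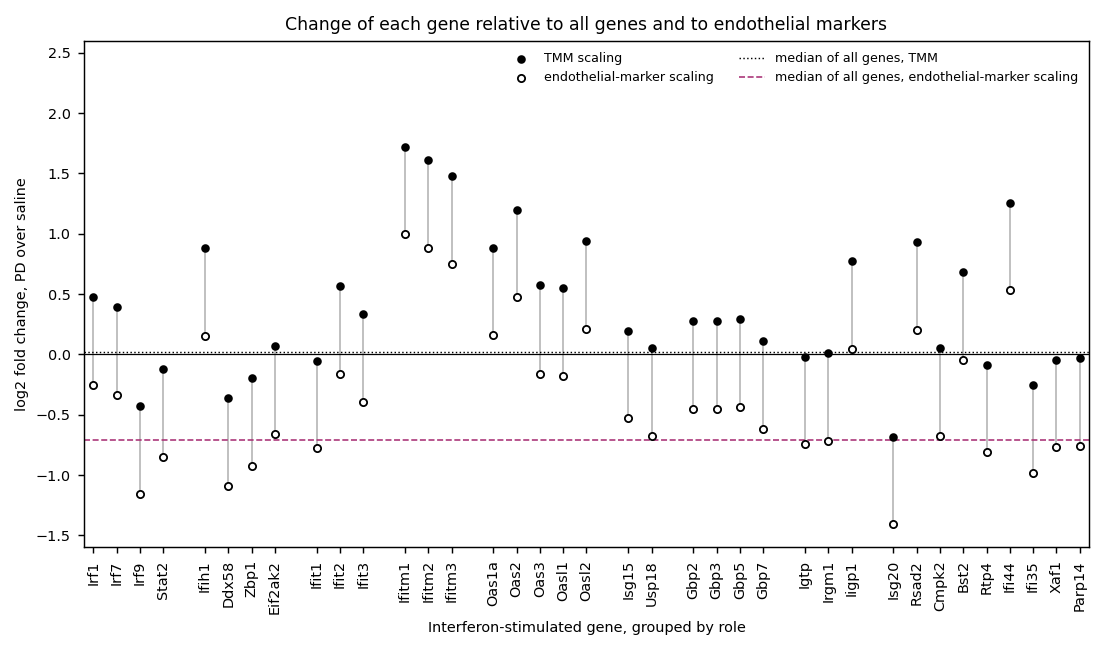
Log2 fold change (PD over saline) of each interferon-stimulated gene with TMM scaling (filled points) and with scaling to 12 endothelial markers (open points), in role groups. The median of all genes lies at 0.02 and -0.71, respectively, and 16 of the 37 genes change sign between the scalings, while Ifitm1, Ifitm2, Ifitm3, Oas2 and Ifi44 are called higher under both.

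The transcription factors of the response moved in opposite directions. Irf1, a factor that binds ISRE-like elements and is itself induced through a GAS, was at 173, 165.5 and 154 CPM in the saline mice and at 250.0, 225 and 209.5 CPM in the PD mice. Each PD mouse was above each saline mouse, and the log2 fold change was 0.475 (SE 0.077, edgeR adjusted p = 0.00036). Irf7, which drives the interferon alpha genes, rose by 0.39 (SE 0.09, edgeR adjusted p = 0.0036). Irf9, the DNA-binding partner of STAT2, went the other way, with 171, 179.6 and 173 CPM in saline mice and 122, 133 and 133 CPM in PD mice. All PD mice lay below all saline mice, at a log2 fold change of -0.43 (SE 0.06, edgeR adjusted p = 0.00019). Its partner Stat2 was at -0.12 (95% interval -0.29 to 0.04) and was not called. Under the endothelial marker scaling Irf1 (-0.26) and Irf7 (-0.33) turned to lower. Irf7 overlaps Phrf1 and Irf9 overlaps Rnf31 in the annotation, so reads near those gene ends could have been counted for either.

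The nucleic acid sensors also split. Ifih1, which encodes the long double-stranded RNA sensor MDA5, was at 36.4, 38.1 and 34.6 CPM in saline mice and 67.1, 63.5 and 69.9 CPM in PD mice. The groups were well apart, and the log2 fold change was 0.88 (SE 0.08, edgeR adjusted p = 4.1e-06). With endothelial marker scaling it was 0.15 and was not called (edgeR adjusted p = 0.14). Ddx58, which encodes RIG-I, the sensor of RNA ends, was at 84.4, 91.2 and 81.2 CPM in saline mice and 65.0, 71.3 and 63.8 CPM in PD mice. It fell by 0.36 on the log2 scale, with no overlap between the groups (SE 0.08, edgeR adjusted p = 0.0021). Zbp1, a sensor of left-handed nucleic acid, fell by 0.20 (edgeR adjusted p = 0.048), a call that was not made by DESeq2 (adjusted p = 0.063) or without the filter on low counts (0.074) and that was lost without saline mouse 1 (0.18), saline mouse 3 (0.072), PD mouse 1 (0.11), PD mouse 2 (0.14) or PD mouse 3 (0.071). Eif2ak2, which encodes the RNA-activated kinase PKR, was at 0.07 (95% interval -0.21 to 0.35) and was not called.

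The IFITM family had the largest rises in the list. These small membrane proteins block the fusion of incoming virus with endosomes and other membranes. Ifitm3 (ENSMUSG00000025492, chromosome 7, 141009586 to 141010770 on GRCm38) was at 166, 173 and 155 CPM in saline mice and 445, 452.5 and 476.5 CPM in PD mice. The lowest PD mouse was far above the highest saline mouse, and the fitted change was 2.78-fold (log2 1.475, SE 0.064, edgeR adjusted p = 1.4e-08). Ifitm2 (140954837 to 140955987 on the same chromosome) rose from 142 ± 8.18 to 432.6 ± 27.3 CPM (SD, n = 3), or 3.05-fold (edgeR adjusted p = 1.5e-08). Ifitm1 (140967221 to 140969825) was rare, at 3.40, 3.87 and 2.24 CPM in saline mice and 11.6, 9.23 and 10.5 CPM in PD mice. Its groups did not overlap either, and it had the highest fold change of the 37 genes, 3.30-fold (log2 1.72, SE 0.20, edgeR adjusted p = 4.0e-05). By the authors' FPKM, Ifitm3 and Ifitm2 were the highest of the 37 genes in both groups, at 242 ± 11.0 and 216 ± 10.5 in saline mice and 677 ± 8.67 and 662 ± 24.6 in PD mice (SD, n = 3). Ifitm1 was at 5.02 ± 1.19 and 16.9 ± 2.77 FPKM. The 3 genes are neighbours with similar coding sequences, so reads could have been split between them.

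**Figure D3:**
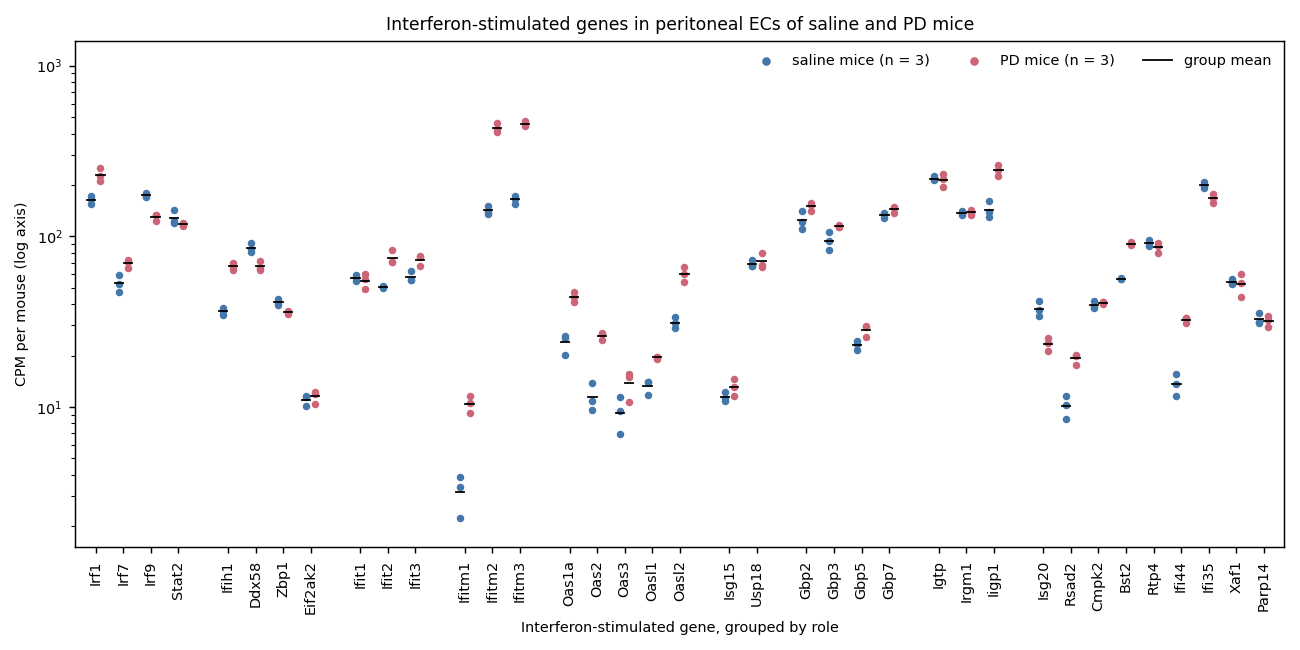
CPM (log axis) of each interferon-stimulated gene in each mouse, in role groups, with saline mice in blue, PD mice in red and the group mean as a bar (n = 3 each). Ifitm2 and Ifitm3 lie at 136 to 173 CPM in saline mice and at 410.0 to 476.5 CPM in PD mice, while Irf9, Ddx58, Zbp1, Isg20 and Ifi35 lie lower in every PD mouse than in any saline mouse.

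All 5 OAS genes rose under TMM scaling, although Oas3 (-0.16) and Oasl1 (-0.18) turned to negative, uncalled values with endothelial marker scaling and Oas1a (0.16, edgeR adjusted p = 0.21) and Oasl2 (0.21, edgeR adjusted p = 0.078) were no longer called. Oligoadenylate synthetases are activated by double-stranded RNA and make the messenger that switches on RNase L. The Oasl genes are relatives, and Oasl1 is known for repressing Irf7 translation. Oas2 was at 13.8, 9.55 and 10.8 CPM in saline mice and 26.8, 27.2 and 24.6 CPM in PD mice. The groups stood clear of each other, at 2.30-fold (log2 1.20, SE 0.14, edgeR adjusted p = 2.9e-05). Oasl2, the most abundant by CPM, was at 31.2, 33.4 and 29.0 CPM and 59.8, 53.7 and 66.1 CPM, with every PD mouse higher (log2 0.94, SE 0.10, edgeR adjusted p = 1.3e-05). Oas1a rose by 0.89 and Oasl1 by 0.55, both without overlap. Oas3 rose by 0.57 with overlapping groups (edgeR adjusted p = 0.027). That call was lost without saline mouse 2 (0.070), saline mouse 3 (0.054), PD mouse 1 (0.10) or PD mouse 2 (0.089). Oas1a, Oas2 and Oas3 lie together on chromosome 5 between 120730333 and 120907521.

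Of the IFIT genes, whose products bind viral RNA ends or act beside those that do, Ifit2 and Ifit3 rose under TMM scaling and turned to -0.16 and -0.40 with endothelial marker scaling. Ifit2 was at 50.7, 49.4 and 51.1 CPM in saline mice and 70.4, 70.9 and 82.9 CPM in PD mice. The saline mice were close together and all PD mice above them (log2 0.57, SE 0.08, edgeR adjusted p = 0.00017). Ifit3 was at 55.4, 62.6 and 55.7 CPM and 66.6, 76.3 and 75.7 CPM, again without overlap (log2 0.33, SE 0.08, edgeR adjusted p = 0.0057). Ifit1, the member that grips RNA caps, was at -0.05 (95% interval -0.24 to 0.14) and was not called. Ifit3 has a close copy, Ifit3b, with which reads could have been shared.

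Neither gene of the ISG15 system passed the test. ISG15 is a ubiquitin-like protein that is attached to other proteins, and USP18 removes it and also damps signalling at the type I receptor. Usp18 was at 67.0, 72.2 and 67.2 CPM in saline mice and 65.9, 68.0 and 80.2 CPM in PD mice, so that the groups overlapped (log2 0.05, 95% interval -0.14 to 0.24). Isg15 was at 11.4 ± 0.713 and 13.1 ± 1.48 CPM (SD, n = 3; log2 0.195, 95% interval -0.09 to 0.48).

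Changes in the guanylate-binding proteins, large GTPases that coat and lyse vacuoles holding microbes, were small. Gbp5, which also promotes inflammasome assembly, was at 24.3, 23.3 and 21.5 CPM in saline mice and 29.3, 29.6 and 25.8 CPM in PD mice. The lowest PD mouse was slightly above the highest saline mouse (log2 0.29, SE 0.10, edgeR adjusted p = 0.024). Gbp3 (0.28, edgeR adjusted p = 0.018) and Gbp2 (0.27, edgeR adjusted p = 0.022) had similar changes, and the groups overlapped for Gbp2. Gbp7 was at 135, 136.5 and 127 CPM in saline mice and 136, 147 and 148 CPM in PD mice. Its groups overlapped and it was not called (log2 0.11, 95% interval -0.03 to 0.25). All 4 turned to lower with endothelial marker scaling, from -0.44 for Gbp5 to -0.62 for Gbp7. The Gbp2 call was lost without saline mouse 1 (adjusted p = 0.094), saline mouse 3 (0.065), PD mouse 2 (0.063) or PD mouse 3 (0.060) in edgeR. The Gbp3 call was lost without saline mouse 1 (0.052) or saline mouse 3 (0.068), and the Gbp5 call without saline mouse 3 (0.084), PD mouse 1 (0.074) or PD mouse 2 (0.088).

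Among the immunity-related GTPases, Iigp1 alone passed the test. Iigp1, an effector that attacks the membranes of parasite vacuoles, was at 129, 161 and 138 CPM in saline mice and 226, 243 and 263 CPM in PD mice. Its groups were apart (log2 0.77, SE 0.09, edgeR adjusted p = 2.9e-05), with 0.05 and no call under endothelial marker scaling. Igtp, a regulatory GTPase, was at 213, 224 and 216 CPM in saline mice and 195, 218 and 231 CPM in PD mice. The PD mice spanned the whole range of the saline mice (log2 -0.02, 95% interval -0.18 to 0.14). Irgm1, also regulatory, was at 0.01 (95% interval -0.12 to 0.15). Igtp overlaps Irgm2 in the annotation.

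The remaining effectors had both the steepest fall and large rises. Ifi44, a protein long used as an interferon marker, was at 13.7, 15.6 and 11.5 CPM in saline mice and 31.1, 33.0 and 33.4 CPM in PD mice. Every PD mouse was above every saline mouse, at 2.39-fold (log2 1.26, SE 0.12, edgeR adjusted p = 6.8e-06). Rsad2, which encodes the radical enzyme viperin, rose by 0.93 and Bst2, which encodes the tetherin that holds budding virus at the membrane, by 0.69. Neither was called with endothelial marker scaling, at 0.20 for Rsad2 and -0.04 for Bst2. Isg20, an RNA exonuclease, was at 41.5, 37.1 and 34.2 CPM in saline mice and 21.3, 23.7 and 25.3 CPM in PD mice. It was the furthest fall of the 37 genes, with no overlap (log2 -0.68, SE 0.10, edgeR adjusted p = 0.00024). Ifi35, a partner of NMI, was the most abundant of this group by CPM, at 192, 208 and 198 CPM in saline mice and 157, 168 and 176 CPM in PD mice. Its PD values lay below all saline values (log2 -0.26, SE 0.07, edgeR adjusted p = 0.0060). Cmpk2 (0.06, 95% interval -0.12 to 0.23), a mitochondrial nucleotide kinase beside Rsad2 on chromosome 12, was not called. Rtp4 (-0.09), which overlaps the antisense gene Masp1, Xaf1 (-0.05) and the ADP-ribosyltransferase Parp14 (-0.03) were not called either.

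**Figure D4:**
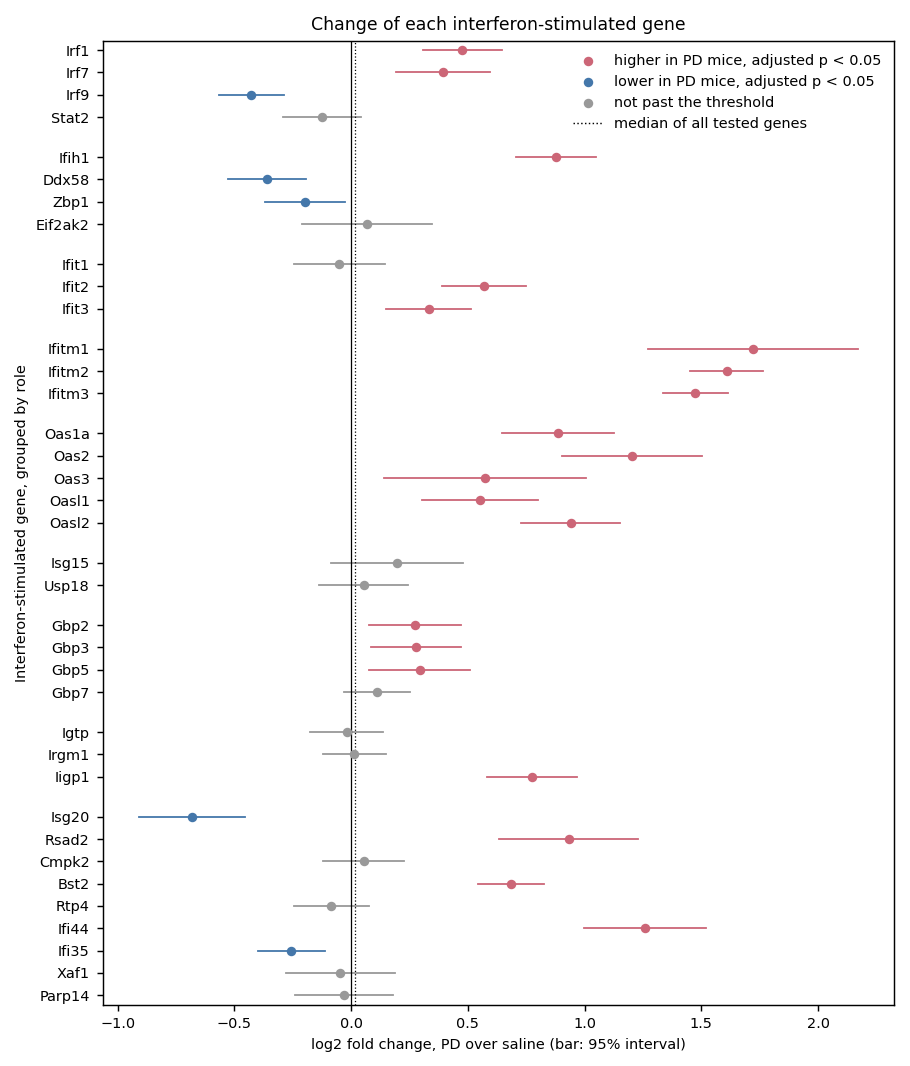
Log2 fold change (PD over saline) of each interferon-stimulated gene with its 95% interval, in role groups, from edgeR with TMM scaling. The 3 IFITM and 5 OAS genes lie above 0 (with endothelial marker scaling Oas3 and Oasl1 turn to -0.16 and -0.18, and Oas1a and Oasl2 are not called), and Irf9, Ddx58, Zbp1, Isg20 and Ifi35 lie below 0.

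Upstream of these genes, transcripts of the interferons themselves were scarce. Of 21 interferon genes, 1 passed the filter on low counts and 16 had no read in any saline mouse. Ifng, the type II interferon made by T and NK cells, was at 3.63, 2.68 and 2.77 CPM in saline mice and 2.69, 3.82 and 4.17 CPM in PD mice. The groups overlapped (log2 0.22, 95% interval -0.30 to 0.74), and the change was not called. Ifnb1 had 2, 0 and 4 reads in the saline mice and 10, 14 and 4 reads in the PD mice, too few to enter the test. As CPM these were 0.078, 0 and 0.166 in saline mice and 0.368, 0.587 and 0.181 in PD mice, without overlap but on very few reads. Ifnz had 8, 8 and 1 reads in saline mice and 7, 2 and 17 in PD mice. Read totals of 21973426 to 26374292 per mouse set this limit, and a count of 0 leaves room for up to 3 reads.

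Of the 6 interferon receptor genes, 3 rose and none fell under TMM scaling, while all 3 risers turned negative with endothelial marker scaling. Ifngr1, the ligand-binding chain for interferon gamma, rose from 510.3 ± 3.98 to 833 ± 65.7 CPM (SD, n = 3; log2 0.71, edgeR adjusted p = 7.2e-06) and was at -0.02 with that scaling. Ifnar2, the high-affinity chain for type I interferon, rose by 0.58 and was at -0.15 with that scaling. In the JAK-STAT relay and its inhibitors, 4 of 11 genes rose (36.4%, against 31.1% of all genes) and 6 fell (54.5%, against 27.8%). Pias1, a SUMO ligase that restrains cytokine signalling, fell from 287 ± 9.48 to 187 ± 21.8 CPM (SD, n = 3; log2 -0.62, edgeR adjusted p = 8.1e-05). Socs3, an inhibitor of cytokine receptor signalling, rose from 71.5 ± 13.0 to 241 ± 41.3 CPM (log2 1.75, edgeR adjusted p = 2.2e-06). Socs1, the main inhibitor at interferon receptors, rose by 1.08, and both SOCS genes were also called higher with endothelial marker scaling (1.02 and 0.35).

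Of 18 tested genes for sensing and induction, 3 rose (16.7%, against 31.1% of all genes) and 6 fell (33.3%, against 27.8%). The adaptor Mavs, on which both MDA5 and RIG-I signal, rose by 0.56 and the ubiquitin ligase Trim25 by 0.35, and both turned negative with endothelial marker scaling (-0.17 and -0.38). The DNA sensor Aim2 fell by 0.68 on the log2 scale and Irf8, a factor of myeloid and B cells, by 0.33. Of 11 other interferon-inducible GTPases, 3 rose (27.3%, against 31.1% of all genes) and 3 fell (27.3%, against 27.8%). Gm4951 (1.12) and Irgm2 (0.53) were highest and Gbp10 (-0.54) and Gbp9 (-0.47) lowest. With endothelial marker scaling Irgm2 was at -0.20 and Gm4951 at 0.40, which was not called (edgeR adjusted p = 0.070). In a list of 56 further interferon-stimulated genes, 17 rose (30.4%, against 31.1% of all genes) and 25 fell (44.6%, against 27.8%). The median log2 fold change of that list was -0.14. Oas1g (2.34) and Ifi207 (1.78) rose most, and Trim21 (-1.10) and Ifit1bl1 (-1.07) fell most. Over all 103 tested genes of the pathway outside the 37, 30 rose (29.1%, against 31.1% of all genes) and 40 fell (38.8%, against 27.8%), and the median was -0.05.

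**Figure D5:**
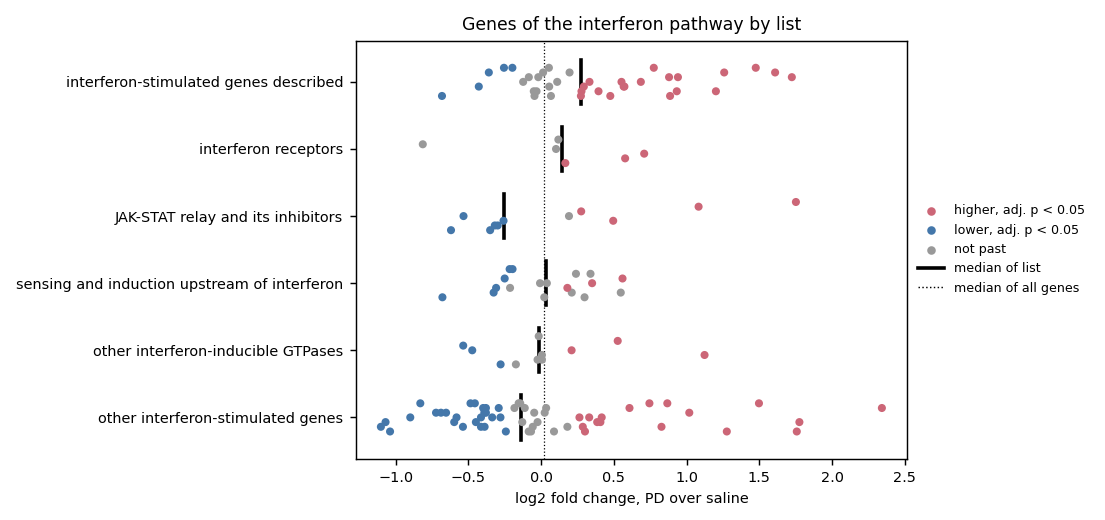
Log2 fold change (PD over saline, TMM scaling) of each tested gene in the 37 interferon-stimulated genes and in 5 other interferon pathway lists, with the median of each list as a bar and the median of all genes as a dotted line. The median is 0.28 for the 37 genes and -0.14 for the 56 further interferon-stimulated genes, and every list holds genes on both sides of 0. In the receptor list only Ifnlr1 lies below 0 (-0.81, not called), on 47 reads over all saline mice and 27 over all PD mice.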

How the data were processed

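Cells isolated as peritoneal ECs from 3 saline and 3 PD mice were compared, with groups taken from the labels. The authors deposited 1 table of read counts per gene, not normalized, with FPKM for every mouse, also as deposited. Its columns of group means, fold changes, p-values and FDR hold the authors' own comparison and were not used. The submitters' processing notes name fastp 0.18.0, Bowtie2 2.2.8, HISAT2, StringTie 1.3.1 and RSEM. The genome build and the strand setting of the counting are not given in the sources used here. Positions are on GRCm38 with GENCODE M21, in which 22128 identifiers of the table were found. The library kit is not described as keeping strand, so overlapping genes may share reads.

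Counts were analysed with R 4.3.3 and edgeR 4.0.16 (filterByExpr, TMM, quasi-likelihood test, no covariate). P-values were adjusted by Benjamini-Hochberg over all 14005 tested genes, with a threshold of 0.05. FPKM served only to compare levels between genes. Totals ran from 21973426 to 26374292 counts per mouse. Libraries of the same group differed by more than counting error. The p-values set the group difference against the spread between these mice, as estimated by edgeR with information shared across genes. Alternatives were DESeq2 1.42.0, voom of limma 3.58.1, RLE scaling, scaling to 12 endothelial markers, no filter on low counts, a 2-fold change, the replicate number as a block, and leaving out each mouse. The edgeR, voom and DESeq2 fits were tested on simulated counts with few changed genes, balanced in direction. That simulation held no broad shift like the one between these groups, and it did not cover the endothelial marker scaling. Members, pathway lists and marker lists were chosen with earlier results of these data known. Every member is named, and values per mouse are given for the largest called rise and fall, the most abundant member by CPM and any call against the majority in each role group. From each pathway list the 2 largest called rises and falls are named, with every interferon gene above 3 counts in any mouse. 1 gene that this rule names is not reported here. Tables were made with Python 3.11.15 and pandas 2.3.3.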

Additional observations from a re-analysis of the deposited data

How the results depend on the processing

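With DESeq2, voom, RLE scaling, no filter on low counts and the replicate number as a block, 20 of the 37 genes were called higher each time, and 4 or 5 lower. Leaving out each mouse gave 16 to 19 higher and 4 to 5 lower genes, and 23 to 29 higher and 36 to 41 lower genes in the other pathway lists. The fit with the replicate block gave 20 higher and 4 lower, and 28 higher and 40 lower in the other lists. Among the 37 genes, the block changed the call of Zbp1 alone (-0.197, edgeR adjusted p = 0.086). Same-numbered mice deviated together for numbers 1 and 2 but not 3 (r = 0.36, 0.15 and -0.44 over 9385 genes), so the numbers were not taken as pairs, and not every mouse correlated best with its own number. Scaling to endothelial markers, which by construction moves the median of all genes to -0.71, gave 5 higher and 23 lower genes, and 8 and 82 in the other lists, against 30 and 40. A 2-fold change, which by construction removes smaller ones, left 5 and 0, and 9 and 3 in the other lists. Signs turned with endothelial marker scaling for Irf1 (-0.26), Irf7 (-0.33), Eif2ak2 (-0.66), Ifit2 (-0.16), Ifit3 (-0.40), Oas3 (-0.16), Oasl1 (-0.18), Isg15 (-0.53), Usp18 (-0.67), Gbp2 (-0.45), Gbp3 (-0.45), Gbp5 (-0.44), Gbp7 (-0.62), Irgm1 (-0.71), Cmpk2 (-0.67) and Bst2 (-0.043). Irgm1 was at -0.002 with DESeq2. With each mouse left out, the log2 fold change of 6 genes not called in the main comparison also crossed 0: Ifit1 (-0.112 to 0.026), Usp18 (-0.033 to 0.107), Igtp (-0.071 to 0.044), Irgm1 (-0.009 to 0.035, and -0.005 without PD mouse 2), Xaf1 (-0.149 to 0.065) and Parp14 (-0.083 to 0.031).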

Other observations

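Close relatives within the wider interferon-stimulated list moved in opposite directions, a feature chosen after the values were seen. In the p200 family of nuclear and cytosolic DNA-binding proteins, which lie together in the genome, Ifi207 rose from 26.2 ± 1.92 to 89.7 ± 4.30 CPM (SD, n = 3; log2 1.78, edgeR adjusted p = 2.3e-08), Ifi204 by 1.76 and Ifi205 by 0.83. Ifi209 fell from 502.1 ± 51.1 to 269 ± 15.3 CPM (log2 -0.90, edgeR adjusted p = 4.1e-06), and Ifi213 (-0.69) and Mndal (-0.40) fell with it. Ifi203 was at -0.14 and was not called. The rises of Ifi207 and Ifi204 were also called with scaling to endothelial markers (1.05 and 1.03), whereas Ifi205 was at 0.10 and not called. Among the Oas1 copies, Oas1g rose from 1.75 ± 0.174 to 8.95 ± 1.13 CPM (log2 2.34) and Oas1c fell from 10.6 ± 0.0720 to 6.45 ± 0.917 CPM (log2 -0.72, edgeR adjusted p = 0.0015). These genes have near-identical copies, so the split of reads between them is uncertain, and markers of macrophages and B cells moved in opposite directions in the same libraries. Their part in these differences was not tested.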
